A study of Mus musculus with 6 samples.

Results

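The 9 genes described here, Mag, Mog, Opalin, Mobp, Mbp, Cnp, Mal, Cldn11 and Ugt8a, encode proteins of myelin or of the oligodendrocytes that make it. Each was measured by all of its probe sets, groups of short probes that each report on a transcript, to which the array annotation gives that symbol and no other. There were 25 such probe sets among the 45101 of the Affymetrix MG430 2.0 array, 8 for Mbp, 5 for Mobp, 3 for Cnp, 2 each for Mal, Opalin and Ugt8a, and 1 each for Mag, Mog and Cldn11. A minimum mean signal of 100 in any group was required for testing, and 23 of the 25 met it, as did 23262 in all. The values are linear signal intensities that the authors had scaled to 600 on every chip, and differences are given on the log2 scale.

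Hippocampi came from male Tg2576 mice with a C57BL/6J background (C57BL/6 in the sample labels), an Alzheimer's disease model in which human amyloid precursor protein (APP695) with the Swedish double mutation is driven by the prion protein promoter. Tg-18mo-ACEI mice were 18 months old and had received captopril, a centrally active inhibitor of the angiotensin-converting enzyme, in drinking water for 6 months (20 mg per kg per day). Tg-18mo mice were untreated and 18 months old, with a high load of amyloid-β plaques, and Tg-12mo mice were untreated and 12 months old, with a low load. Every group carried the transgene, so no comparison with wild-type mice can be made, and the promoter is described by the study as neuron-specific. Each group had 2 chips, and each chip carried RNA pooled from 4 perfused mice. Whether the 2 pools of a group came from different mice is not stated, and the p-values therefore measure the spread between chips, which may be technical.

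Oligodendrocytes wrap axons in many layers of their own membrane. Compact myelin is held together on its cytoplasmic side by myelin basic protein (Mbp) and contains the related basic protein Mobp, while myelin-associated glycoprotein (Mag) sits in the innermost wrap that faces the axon and myelin oligodendrocyte glycoprotein (Mog) on the outermost surface. The membrane is rich in galactolipids, whose synthesis depends on the galactosyltransferase Ugt8a, and in cholesterol. RNA of whole hippocampus cannot tell fewer oligodendrocytes from less RNA per oligodendrocyte.

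The chips differed in some properties and were alike in others. The 99th percentile of the signals was 10697 and 10401 for Tg-18mo-ACEI, 10721 and 11291 for Tg-18mo, and 14069 and 14297 for Tg-12mo, so the bright end of the scale reached higher at 12 months although all chips had the same scaled mean. For β-actin the 3′/5′ ratio, a measure of RNA integrity and labelling, was 1.45 and 1.38 for Tg-18mo-ACEI, 1.98 and 1.88 for Tg-18mo, and 1.83 and 1.77 for Tg-12mo. For 18S ribosomal RNA the 3′ probe set read 2214 and 1999.95 for Tg-18mo-ACEI, 10219 and 11144 for Tg-18mo, and 2125 and 2121 for Tg-12mo. The 3′/5′ ratio of Gapdh was close on all 6 chips, at 0.854 and 0.855 for Tg-18mo-ACEI, 0.828 and 0.832 for Tg-18mo, and 0.862 and 0.849 for Tg-12mo. The part of these chip properties in the results below was not tested. All 8 markers of hippocampal neurons passed the signal minimum, with Neurod6 between 4061 and 6144 and Zbtb20 between 3473 and 5345 on the 6 chips. All 8 markers of thalamus and striatum and all 10 of choroid plexus passed it too, so the minimum does not tell these tissues apart.

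Promoter sequences from RefSeq (mouse build GRCm38.p6) were used for 8 of the 9 genes, all but Mbp. They form 10 windows that run 250 bases before to 50 bases after a start site. The windows of 4 genes are shown. Mag, Cnp and Mobp had probe sets with lower signals after captopril and hold matches to the motifs searched, and Ugt8a had a higher signal and holds none. This contrast comes from which windows are shown and is not a result. The matches do not follow the direction throughout, since Mog was also lower after captopril and its window has none. Opalin was lower too and its window, not shown, has matches, while those of Mal and Cldn11 have none. Capitals mark matches, on either strand, to ACAAAG, the core bound by SOX factors such as Sox10, and to CTGGCAC, a motif known for the myelin regulator Myrf. The matches did not overlap each other, and the third motif searched, the E-box CAGCTG, has no match in the 4 windows shown.
Mag (chr7:30914814-30915113, minus strand): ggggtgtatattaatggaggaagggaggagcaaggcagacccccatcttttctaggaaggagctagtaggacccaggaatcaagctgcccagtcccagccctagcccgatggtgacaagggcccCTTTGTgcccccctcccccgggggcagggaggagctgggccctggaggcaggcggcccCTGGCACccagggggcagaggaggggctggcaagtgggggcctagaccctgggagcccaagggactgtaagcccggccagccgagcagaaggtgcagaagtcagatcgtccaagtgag
Cnp (chr11:100574689-100574988, plus strand): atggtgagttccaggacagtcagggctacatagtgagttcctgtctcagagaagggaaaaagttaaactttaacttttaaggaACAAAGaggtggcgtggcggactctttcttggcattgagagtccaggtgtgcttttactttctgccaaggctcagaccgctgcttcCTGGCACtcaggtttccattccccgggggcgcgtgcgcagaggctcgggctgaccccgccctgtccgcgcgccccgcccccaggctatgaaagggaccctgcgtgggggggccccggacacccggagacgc
Mobp (chr9:120149492-120149791, plus strand): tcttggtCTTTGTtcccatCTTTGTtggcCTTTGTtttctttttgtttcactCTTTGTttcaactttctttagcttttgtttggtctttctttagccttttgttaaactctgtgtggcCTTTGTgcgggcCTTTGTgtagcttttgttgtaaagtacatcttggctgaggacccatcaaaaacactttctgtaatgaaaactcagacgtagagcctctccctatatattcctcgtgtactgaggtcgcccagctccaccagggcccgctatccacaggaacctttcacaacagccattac
Ugt8a (chr3:125938603-125938902, minus strand): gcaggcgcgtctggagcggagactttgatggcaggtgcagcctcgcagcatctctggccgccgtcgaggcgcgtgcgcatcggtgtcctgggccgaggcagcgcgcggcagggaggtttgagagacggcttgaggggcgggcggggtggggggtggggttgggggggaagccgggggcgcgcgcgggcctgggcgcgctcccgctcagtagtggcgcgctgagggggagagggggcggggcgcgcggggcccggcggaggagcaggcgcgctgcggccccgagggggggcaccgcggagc
ACAAAG was found in windows of 4 genes, with 6 matches in Mobp, 2 in Opalin, and 1 in Cnp and in Mag. By window this is 5 of 10, and it is present in 18.7% of all 32851 mouse windows of this length. CTGGCAC was found for 3 genes, Mag, Cnp and Opalin, in 4 of 10 windows, against 5.01% of all windows. CAGCTG was found for 1 gene, Opalin, in 1 of 10 windows, against 16.3% of all windows. The Mag window shown is 1 of 3 for this gene. The overlapping window that starts further upstream holds the same matches, so these are counted again, and the remaining Mag window holds none. The windows of Ugt8a, Mog, Mal and Cldn11 have none of the 3 motifs. A match is a description of these letters only.

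The first comparison asked how the myelin genes stood in captopril-treated mice relative to untreated mice of the same age. Mag, Mog, Opalin and all 4 tested Mobp probe sets had lower signals after captopril, as did 2 of 3 Cnp probe sets and 1 of 8 Mbp probe sets. Ugt8a, 1 of 2 Mal probe sets and another Mbp probe set had higher signals. Of the 23 tested member probe sets, 3 were higher and 10 lower at an adjusted p under 0.05, and 10 did not pass. This is 13.0% and 43.5% of the member probe sets, several of which read the same gene, against 15.9% higher and 17.7% lower among all probe sets tested. The median log2 difference was -0.16 over the member probe sets and -0.04 over all probe sets.

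**Figure D1:**
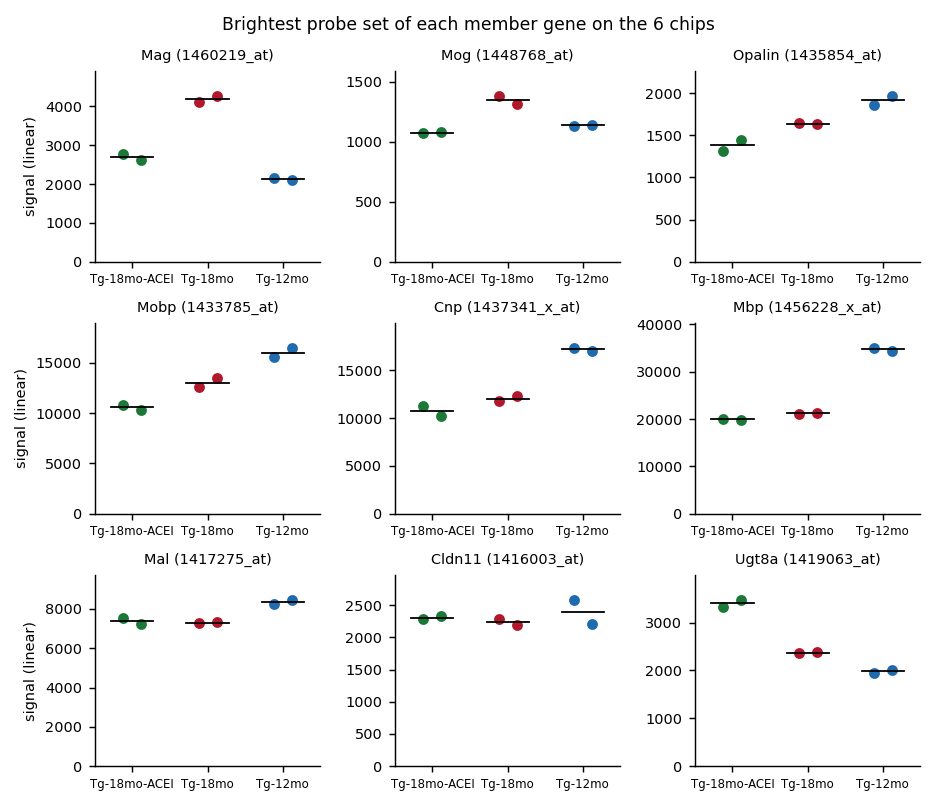
Signal (linear, scaled to 600) of the brightest probe set of each of the 9 genes. Points are chips, lines are group means of 2 chips, and each panel starts at 0. Ugt8a peaks in Tg-18mo-ACEI (3332 and 3474), Mag in Tg-18mo (4104 and 4279) and Mbp in Tg-12mo (35073 and 34364), where quantile normalization removes the Mbp difference, and the Cldn11 chips overlap.

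Mag, the glycoprotein of the axon-facing membrane, had signals of 2770.1 and 2629 on the Tg-18mo-ACEI chips, against 4104 and 4279 on the Tg-18mo chips (probe set 1460219_at). Both treated chips lay well below both untreated chips. The means were 2700 ± 99.6 in Tg-18mo-ACEI and 4192 ± 124 in Tg-18mo (SD, n = 2 each), a log2 difference of -0.63 ± 0.05 (SE, limma, adjusted p = 6.4e-05). This was the most negative difference among the 9 genes when each was represented by its brightest probe set.

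Mog, the surface glycoprotein, had 1069 and 1076 in Tg-18mo-ACEI, against 1383 and 1309 in Tg-18mo, so the treated chips again did not overlap with the untreated ones (log2 difference -0.33 ± 0.06, adjusted p = 0.0041). Opalin, a small transmembrane glycoprotein made by mature oligodendrocytes of the central nervous system, had 1317 and 1445 in Tg-18mo-ACEI, against 1641 and 1631 in Tg-18mo (-0.25 ± 0.06, adjusted p = 0.019). Without the first Tg-18mo-ACEI chip the adjusted p of Opalin was 0.11, without either Tg-18mo chip it was 0.083, and with no intensity trend in the prior variance it was 0.07.

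Mobp, a basic protein of compact myelin, was lower on each of its 4 tested probe sets, but by unequal amounts. On 1450088_a_at the signals were 1463 and 1512 in Tg-18mo-ACEI, against 2628 and 2537 in Tg-18mo, a 1.74-fold lower level and the most negative difference of any member probe set (log2 -0.80 ± 0.05, adjusted p = 1.9e-05). On 1436263_at they were 2336 and 2227 in Tg-18mo-ACEI, against 3617 and 3542 in Tg-18mo (-0.65 ± 0.05, adjusted p = 4.2e-05). The 2 brighter probe sets differed by less. The brightest, 1433785_at, had 10830.3 and 10353 in Tg-18mo-ACEI, against 12578 and 13491 in Tg-18mo (-0.30 ± 0.05, adjusted p = 0.0041), and 1421010_at had a difference of -0.26 ± 0.05 (adjusted p = 0.0036). Treated and untreated chips were apart on all 4.

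Cnp, an enzyme-related protein that keeps cytoplasmic channels open within myelin, was lower on 1418980_a_at, with 3126 and 3176 in Tg-18mo-ACEI, against 4257 and 4326 in Tg-18mo (-0.45 ± 0.05, adjusted p = 0.0003). On 1449296_a_at it had 1625 and 1794 in Tg-18mo-ACEI, against 2085 and 2195 in Tg-18mo (-0.33 ± 0.08, adjusted p = 0.012), a call that was lost without the first Tg-18mo-ACEI chip (adjusted p = 0.079), without the second Tg-18mo chip (0.08) or with no intensity trend (0.059). The brightest Cnp probe set, 1437341_x_at, did not pass, with 11318 and 10201 in Tg-18mo-ACEI, against 11745 and 12302 in Tg-18mo (-0.16 ± 0.06, adjusted p = 0.061). Its chips did not overlap, but the treated chips lay close to the untreated ones.

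Ugt8a, which makes the galactolipids of myelin, had 3332 and 3474 in Tg-18mo-ACEI, against 2356 and 2384 in Tg-18mo, on its brighter probe set 1419063_at. Both treated chips were higher, by 1.44-fold (log2 0.52 ± 0.05, adjusted p = 0.00015). The dim probe set 1419064_a_at had 292 and 272 in Tg-18mo-ACEI, against 241 and 235 in Tg-18mo (0.25 ± 0.14, adjusted p = 0.21). Mal, a membrane protein that takes part in sorting to lipid-rich membrane, had 2437 and 2443 in Tg-18mo-ACEI, against 1715 and 1794 in Tg-18mo on 1432558_a_at (0.48 ± 0.06, adjusted p = 0.00048). On its brighter probe set 1417275_at the chips overlapped, with 7533 and 7253 in Tg-18mo-ACEI, against 7285 and 7336 in Tg-18mo (0.02 ± 0.04, adjusted p = 0.80). Cldn11, the claudin of the tight junctions between myelin wraps, had 2285 and 2326 in Tg-18mo-ACEI, which overlapped with the 2287 and 2193 in Tg-18mo (0.04 ± 0.07, adjusted p = 0.69).

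Of the 8 Mbp probe sets, 6 did not pass after captopril. On the brightest, 1456228_x_at, the signals were 20096 and 19797 in Tg-18mo-ACEI, against 21189.7 and 21333 in Tg-18mo (-0.09 ± 0.04, adjusted p = 0.13). Probe set 1451961_a_at was lower, with 8262 and 7633 in Tg-18mo-ACEI, against 9491 and 9992 in Tg-18mo (-0.29 ± 0.06, adjusted p = 0.0062, and 0.051 with no intensity trend). Probe set 1425263_a_at stood apart from all other members. The array annotation given with the study assigns it to a golli-mbp transcript, that is, a product of the same gene that begins at an upstream start site and is also made in neurons and immune cells. It had 680.9 and 640.2 in Tg-18mo-ACEI, against 201.9 and 151.8 in Tg-18mo. That is a 3.77-fold higher level (log2 1.92 ± 0.15, adjusted p = 4.8e-05), and it was the only member probe set with a difference of 2-fold or more in this comparison.

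**Figure D2:**
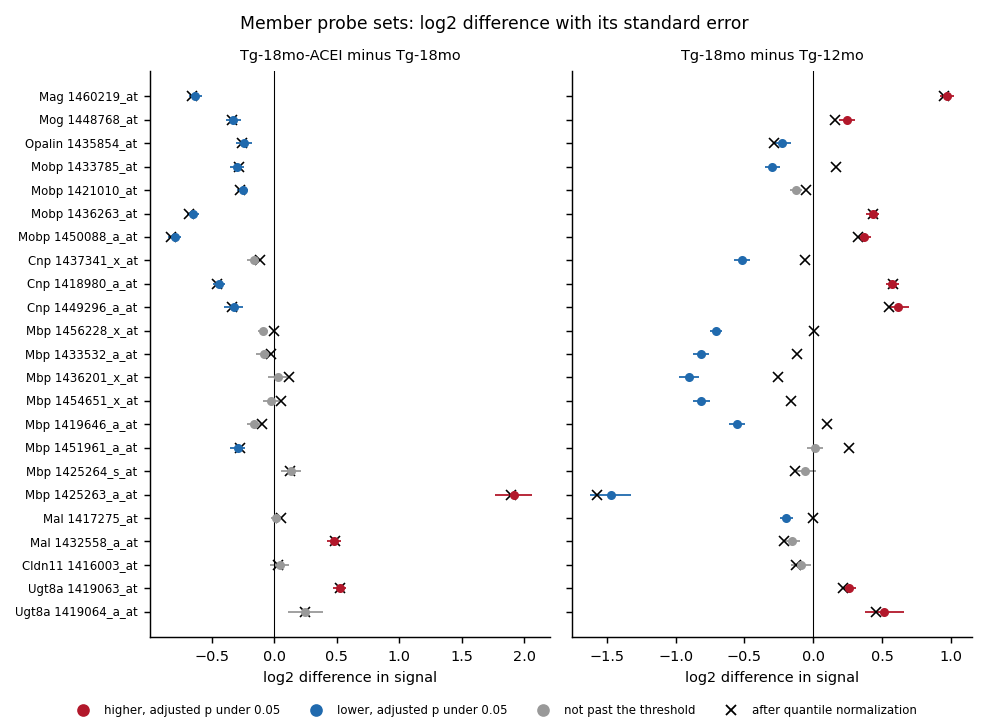
Log2 difference of each of the 23 tested member probe sets, Tg-18mo-ACEI minus Tg-18mo on the left and Tg-18mo minus Tg-12mo on the right. Dots are the limma estimates with their standard errors, coloured by call, and crosses are the same differences after quantile normalization. On the left dots and crosses lie close together. On the right they part for the bright Mbp, Mobp and Cnp probe sets, and 1433785_at of Mobp and 1419646_a_at of Mbp change sign.

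The second comparison asked how the same genes stood at 18 months relative to 12 months without treatment. At 18 months Mag, Mog, Ugt8a, 2 Cnp and 2 Mobp probe sets had higher signals, while Opalin, the bright probe sets of Mbp, Mobp, Cnp and Mal and the golli-annotated probe set of Mbp had lower ones. Of the 23 probe sets 8 were higher, 10 lower and 5 did not pass, which is 34.8% and 43.5% of the member probe sets, against 25.9% higher and 21.5% lower among all probe sets. The split depended on the scaling. After quantile normalization, which gives all chips the same distribution of signals, 10 were higher and 6 lower. The member median was -0.12 with the deposited scaling and 0.00 after quantile normalization, and that of all probe sets was 0.05 and 0.01. Both comparisons made so far use the Tg-18mo chips, so an opposite sign in the 2 is not independent evidence.

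Mag had 4104 and 4279 in Tg-18mo, against 2166 and 2104 in Tg-12mo, a 1.96-fold higher level with no overlap (log2 0.97 ± 0.05, adjusted p = 8.1e-06). The difference was 0.95 after quantile normalization, so it did not rest on the scaling. For Mog the signals were 1383 and 1309 in Tg-18mo, against 1126 and 1142 in Tg-12mo (0.25 ± 0.06, adjusted p = 0.0097). This call did not hold throughout, since the adjusted p was 0.059 after quantile normalization and 0.077 without the first Tg-18mo chip. Opalin was lower, with 1641 and 1631 in Tg-18mo, against 1859 and 1973 in Tg-12mo (-0.23 ± 0.06, adjusted p = 0.019). Its adjusted p lay between 0.073 and 0.089 without the first Tg-18mo chip, the second Tg-18mo chip or the second Tg-12mo chip.

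The moderately bright probe sets of Cnp and Mobp were higher at 18 months. Cnp 1418980_a_at had 4257 and 4326 in Tg-18mo, against 2954 and 2806 in Tg-12mo (0.58 ± 0.05, adjusted p = 4.7e-05), and Cnp 1449296_a_at had 2085 and 2195 in Tg-18mo, against 1475 and 1317 in Tg-12mo (0.62 ± 0.08, adjusted p = 0.00029). Mobp 1436263_at had 3617 and 3542 in Tg-18mo, against 2643 and 2665 in Tg-12mo (0.43 ± 0.05, adjusted p = 0.0002). Mobp 1450088_a_at followed with a difference of 0.37 ± 0.05 (adjusted p = 0.0006). These 4 probe sets kept their direction and their call after quantile normalization, with differences between 0.33 and 0.58.

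Ugt8a 1419063_at was higher at 18 months, with 2356 and 2384 in Tg-18mo, against 1946 and 2011 in Tg-12mo (0.26 ± 0.05, adjusted p = 0.003). Its dim probe set 1419064_a_at had 241 and 235 in Tg-18mo, against 177 and 157 in Tg-12mo (0.52 ± 0.14, adjusted p = 0.016), a call that was lost without the second Tg-12mo chip (adjusted p = 0.053), the first Tg-18mo chip (0.079) or the second Tg-18mo chip (0.064). Cldn11 did not pass, and its 2287 and 2193 in Tg-18mo overlapped with the 2580 and 2202 in Tg-12mo (-0.09 ± 0.07, adjusted p = 0.35).

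The brightest probe sets went the other way. Mbp 1456228_x_at had 21189.7 and 21333 in Tg-18mo, against 35073 and 34364 in Tg-12mo, a 1.63-fold lower level (-0.71 ± 0.04, adjusted p = 1.4e-05). The 4 Mbp probe sets next in brightness differed by between -0.90 and -0.55 with the deposited scaling. After quantile normalization 1456228_x_at had a difference of 0.00 (adjusted p = 0.94), 1433532_a_at one of -0.12, 1454651_x_at one of -0.16 and 1436201_x_at one of -0.26, and 1419646_a_at turned to 0.10 (adjusted p = 0.034). Both the size and, for some probe sets, the sign of the Mbp difference between the ages thus depended on the scaling.

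The same held for the bright probe sets of other members. Mobp 1433785_at had 12578 and 13491 in Tg-18mo, against 15523 and 16488 in Tg-12mo (-0.30 ± 0.05, adjusted p = 0.0025), but 0.16 after quantile normalization (adjusted p = 0.0063). Cnp 1437341_x_at had 11745 and 12302 in Tg-18mo, against 17350.3 and 17041 in Tg-12mo (-0.52 ± 0.06, adjusted p = 0.00018), but -0.06 after quantile normalization (adjusted p = 0.27). Mal 1417275_at had 7285 and 7336 in Tg-18mo, against 8273 and 8460 in Tg-12mo (-0.19 ± 0.04, adjusted p = 0.0069), and after quantile normalization its difference was under 0.01 in size (adjusted p = 0.98). Mbp 1451961_a_at, at 0.01 ± 0.06 with the deposited scaling (adjusted p = 0.87), was higher by 0.26 after it (adjusted p = 0.0022).

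**Figure D3:**
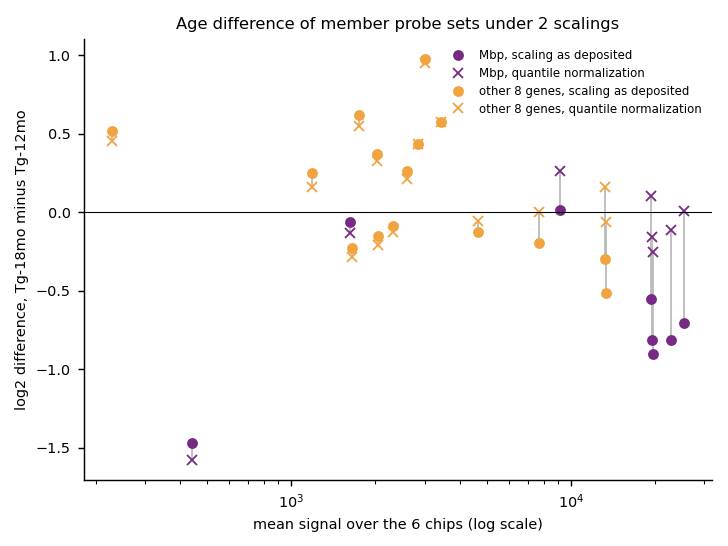
Log2 difference between Tg-18mo and Tg-12mo (vertical) against the mean signal over the 6 chips (horizontal, log scale) for the 23 tested member probe sets. Dots are values with the deposited scaling and crosses those after quantile normalization, joined by a line for each probe set, with Mbp in purple and the other 8 genes in orange. The lines are long at the bright end, where 1456228_x_at of Mbp stands at -0.71 with the deposited scaling and at 0.00 after quantile normalization, and short elsewhere.

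The golli-annotated Mbp probe set 1425263_a_at was lower at 18 months under both scalings. It had 201.9 and 151.8 in Tg-18mo, against 453.7 and 519.5 in Tg-12mo, and the groups were far apart (-1.47 ± 0.15, adjusted p = 0.00011; -1.58 after quantile normalization). The remaining Mbp probe set, 1425264_s_at, had overlapping signals between 1465 and 1724 on all 6 chips and passed in no comparison.

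**Figure D4:**
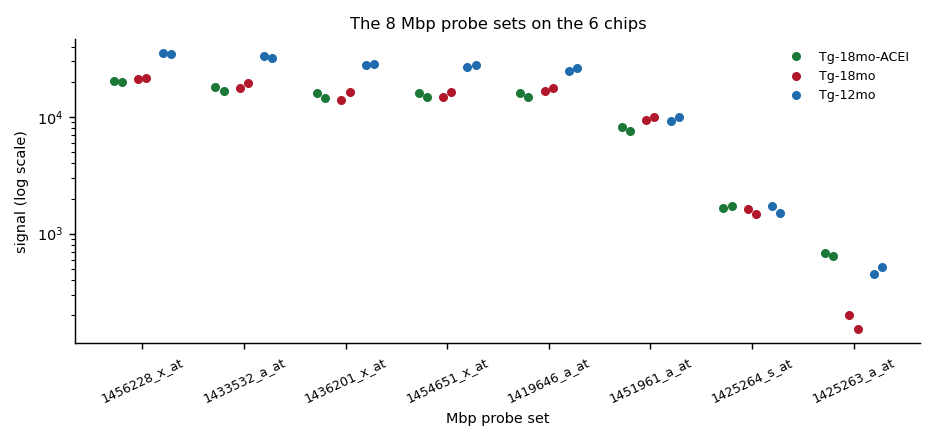
Signal of the 8 Mbp probe sets (log scale) on the 6 chips, ordered from the brightest to the dimmest. The 5 brightest are highest on the Tg-12mo chips with the deposited scaling, a difference that shrinks or turns after quantile normalization, and 1425263_a_at, annotated as golli-mbp, is lowest on the Tg-18mo chips (201.9 and 151.8).

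The third comparison set captopril-treated mice against the 12 month-old group, the age at which treatment had begun. Of the 23 member probe sets 6 were higher and 13 lower, which is 26.1% and 56.5%, against 22.3% higher and 17.7% lower among all probe sets, and after quantile normalization 4 were higher and 9 lower. The member median was -0.22 with the deposited scaling and -0.01 after quantile normalization. Mag was higher, with 2770.1 and 2629 in Tg-18mo-ACEI, against 2166 and 2104 in Tg-12mo (0.34 ± 0.05, adjusted p = 0.0012). Its level in treated mice therefore lay between those of the untreated groups, and all 3 groups differed from each other.

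For the remaining genes the order of the groups varied. Ugt8a 1419063_at was highest in Tg-18mo-ACEI, next in Tg-18mo and lowest in Tg-12mo, and its difference of treated mice from 12 month-old mice was 0.78 ± 0.05 (adjusted p = 2.2e-05; 0.74 after quantile normalization). Opalin had the opposite order, lowest in Tg-18mo-ACEI with 1317 and 1445, against 1859 and 1973 in Tg-12mo (-0.47 ± 0.06, adjusted p = 0.00065). Mog was highest in Tg-18mo, and its 1069 and 1076 in Tg-18mo-ACEI, against 1126 and 1142 in Tg-12mo, did not pass as different (-0.08 ± 0.06, adjusted p = 0.31). After quantile normalization Mog was lower in treated mice by 0.18 (adjusted p = 0.047). Mobp 1450088_a_at and 1436263_at had their lowest signals in Tg-18mo-ACEI, below Tg-12mo by 0.43 and 0.22 on the log2 scale (adjusted p = 0.00038 and 0.0079, the second 0.056 without the second Tg-18mo-ACEI chip). Mobp 1433785_at and 1421010_at were at -0.60 and -0.38 (-0.12 and -0.32 after quantile normalization). Mbp 1456228_x_at, 1433532_a_at, 1436201_x_at, 1454651_x_at and 1419646_a_at lay between -0.90 and -0.72 (-0.14 to 0.01 after it), and Mbp 1451961_a_at at -0.28 (-0.01). Cnp 1437341_x_at was at -0.68 (-0.18 after it), while Cnp 1449296_a_at was at 0.29 (0.21) and Cnp 1418980_a_at did not pass (0.13).

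Mal 1432558_a_at was higher in treated mice than at 12 months (0.32 ± 0.06, adjusted p = 0.0024), and Mal 1417275_at was lower (-0.18 ± 0.04, adjusted p = 0.012). The lower call of 1417275_at was lost without the second chip of either group (adjusted p = 0.075 without that of Tg-18mo-ACEI and 0.069 without that of Tg-12mo), and its sign turned after quantile normalization (0.05). Cldn11 passed in none of the 3 comparisons, and its differences lay between -0.09 and 0.04. The golli-annotated Mbp probe set was higher than at 12 months by 0.44 ± 0.15 (adjusted p = 0.043), but the adjusted p lay between 0.051 and 0.18 when either chip of either group was left out.

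Probe sets of the same gene thus did not always agree. Cnp had 2 probe sets that were higher and 1 that was lower at 18 than at 12 months, Mobp had 2 of each kind by sign, and the Mal probe sets parted after captopril. The suffixes _a, _s and _x mark probe sets that match several transcripts of a gene or share probes with other sequences, which holds for all 8 Mbp probe sets, and no transcript structure was resolved here. Of Mobp and of Opalin 1 probe set each stayed below the signal minimum. Mobp 1441308_at had signals of 3.72 to 8.86 on the 6 chips, and Opalin 1447487_at read 24.5 and 20.1 for Tg-18mo-ACEI, 49.0 and 62.9 for Tg-18mo, and 61.0 and 67.9 for Tg-12mo.

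Other genes of the lineage were followed with 1 probe set a gene, the brightest. Of 25 further genes of mature oligodendrocytes and myelin, 21 were matched and tested. After captopril 1 was higher, 6 were lower and 14 did not pass (median -0.09), against 15.9% higher and 17.7% lower among all probe sets (median -0.04). By their brightest probe sets 1 of the 9 members was higher, 4 were lower and 4 did not pass. Gjb1, the connexin of oligodendrocyte gap junctions, had 392 and 357 in Tg-18mo-ACEI, against 517 and 555 in Tg-18mo (-0.52, adjusted p = 0.0091), and Fa2h, which hydroxylates the fatty acids of myelin galactolipids, had 1628 and 1705 in Tg-18mo-ACEI, against 2298 and 2312 in Tg-18mo (-0.47, adjusted p = 0.00059). Apod, a lipid-binding apolipoprotein, was lower by 0.35 on the log2 scale (adjusted p = 0.00083). Between 18 and 12 months 6 were higher and 4 lower (median 0.10; 8 and 4 after quantile normalization), against 25.9% higher and 21.5% lower among all probe sets. The counts of the lists below are to be read beside the same shares, 15.9% and 17.7% with captopril and 25.9% and 21.5% between the ages. The largest age differences here were Gjb1 at 1.35 (adjusted p = 4.8e-05), Fa2h at 1.03 (1e-05), the phosphatase inhibitor Ppp1r14a at 0.62 (0.0011) and the N-acetylaspartate-cleaving enzyme Aspa at -0.78 (5.7e-05).

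Among 13 regulators of the lineage, 5 were higher and 4 lower after captopril (median 0.10). The higher ones include Tcf7l2 and Enpp6, whose means in Tg-18mo were under the signal minimum. Sox8, a transcription factor related to Sox10, had 597 and 592 in Tg-18mo-ACEI, against 338 and 305 in Tg-18mo (0.89, adjusted p = 0.00037). The transcription factor St18 differed by 0.65 (adjusted p = 0.00045). Tcf7l2, another transcription factor, had 157 and 148 in Tg-18mo-ACEI, against 102 and 90.4 in Tg-18mo (0.67). It met the minimum of 100 only through the groups other than Tg-18mo, so its differences are a description only. Enpp6, a phosphodiesterase of newly formed oligodendrocytes, had 119 and 141 in Tg-18mo-ACEI, against 72.0 and 67.4 in Tg-18mo. It met the minimum of 100 through the treated chips alone, so this difference is a description only. Myrf, which activates myelin genes, was lower, with 1779 and 1553 in Tg-18mo-ACEI, against 2640 and 2530 in Tg-18mo (-0.64, adjusted p = 0.0045), and Sox10 was lower by 0.22 (adjusted p = 0.043). At 18 against 12 months 5 regulators were higher and 5 lower. The higher ones included Nkx2-2 at 0.96 (adjusted p = 0.0013), Sox10 at 0.72 (9.6e-05) and Myrf at 0.69 (0.0018). Tcf7l2 was lower by 0.87, as a description only.

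The 11 progenitor genes tested had 1 higher and 2 lower after captopril, Cspg4, a proteoglycan of these cells, at -0.49 (adjusted p = 0.045), the receptor Gpr37l1 at -0.41 (0.00087) and the phosphatase Ptprz1 at 0.25 (0.027). Of 17 genes of cholesterol and sphingolipid synthesis 5 were higher and 1 lower after captopril, with the ceramide synthase Cers2 at -0.45 (0.001) and the sterol enzyme Msmo1 at 0.29 (0.0023). Between 18 and 12 months 5 were higher and 5 lower in this list. Of 7 genes of the axon-glia junction 3 were lower after captopril and none higher, with 1 higher after quantile normalization. They were Cntn2, an adhesion molecule next to the node of Ranvier, at -0.55 (0.00078), the node and paranode protein Nfasc at -0.31 (0.018) and the spectrin Sptbn4 at -0.21 (0.028). At 18 against 12 months 4 genes of this list were higher and 2 lower (3 and 1 after quantile normalization). The 3 genes above were among the higher ones, at 1.20 (adjusted p = 1.4e-05), 1.13 (2.5e-05) and 0.51 (0.00025), with the Tg-18mo chips shared between these comparisons. The lower ones, named after their values were seen, were the adhesion molecule Cntn1 at -0.47 (0.00015) and the ankyrin Ank3 at -0.31 (0.00065).

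**Figure D5:**
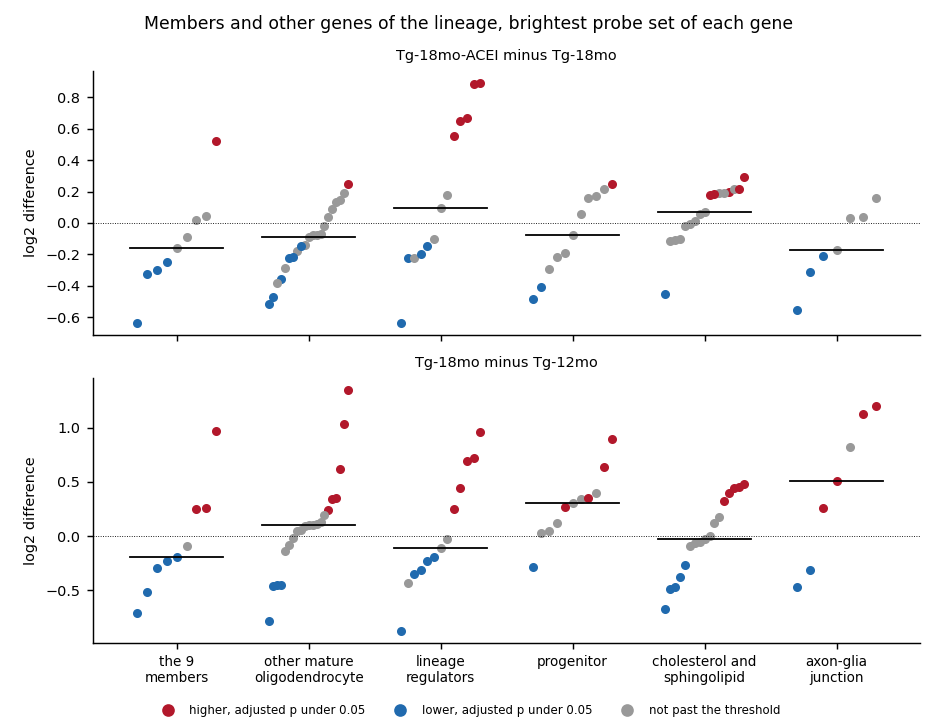
Log2 difference of the brightest probe set of each gene in 6 gene lists, Tg-18mo-ACEI minus Tg-18mo above and Tg-18mo minus Tg-12mo below. Points are genes coloured by call and lines are list medians. Above, the 9 members (median -0.16) and the other mature oligodendrocyte genes (-0.09) lie mostly below 0, while the regulators lie on both sides (5 higher and 4 lower).

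Markers of the other cells of the hippocampus differed between the groups as well. Of 10 neuron markers none was higher and 4 were lower after captopril (1 and 4 after quantile normalization; median -0.12), and at 18 against 12 months 4 were higher and 6 lower (6 and 1 after quantile normalization). Snap25, a bright gene of the synaptic vesicle machinery, had 19064 and 19755 in Tg-18mo, against 30338 and 29504 in Tg-12mo (-0.62, adjusted p = 2.4e-05), and its difference was 0.06 after quantile normalization (adjusted p = 0.43), so bright genes outside the lineage depended on the scaling as Mbp did. Slc17a7, the vesicular glutamate transporter, was higher at 18 months by 1.30 (adjusted p = 2.2e-06; 1.26 after quantile normalization) and lower after captopril by 0.22 (adjusted p = 0.0092).

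Of 10 astrocyte markers 3 were higher and 3 lower after captopril, and 3 were higher and 5 lower at 18 against 12 months. Gfap, the astrocyte filament protein, had 4778 and 4668 in Tg-18mo-ACEI, 5577 and 5523 in Tg-18mo, and 2598 and 2678 in Tg-12mo, so it was highest in Tg-18mo, as Mag was. Aldh1l1 and Sox9 were also highest in Tg-18mo, while Slc1a3, Aqp4 and Gja1 were lowest there. Slc1a3 had 5003 and 5033 in Tg-18mo-ACEI, 3633 and 3588 in Tg-18mo, and 5954 and 5134 in Tg-12mo. Astrocyte markers thus did not share 1 order of the groups. Of 9 microglia markers 2 were higher and 3 lower after captopril, and 5 were higher and 2 lower at 18 against 12 months. Of 7 endothelial markers 2 were higher and 1 lower after captopril, and at 18 against 12 months 3 were higher and none lower (3 and 1 after quantile normalization). Among those higher at 18 months Pecam1 had a mean under the signal minimum in Tg-12mo (97.3 and 79.2).

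Markers of neighbouring tissue differed too. Of 10 choroid plexus markers, 9 were lower in Tg-18mo-ACEI than in Tg-18mo and none higher (1 higher after quantile normalization; median -2.46), and in Tg-18mo-ACEI against Tg-12mo 10 of 10 were lower (9 after quantile normalization). Slc4a5, Aqp1, Otx2 and Cldn3 had Tg-18mo-ACEI means under the signal minimum and met it through the untreated groups alone. Their lower calls are a description only, and the counts and the median above include them. Kcnj13, a potassium channel of this epithelium, had 262 and 227 in Tg-18mo-ACEI, against 1567 and 1701 in Tg-18mo. Most of the summed signal of the 10 markers (22137 and 20210.2 for Tg-18mo-ACEI, 26413 and 28972 for Tg-18mo, and 44412 and 44104 for Tg-12mo) came from Ttr, the transthyretin of this epithelium, which had 20358 and 18370.3 in Tg-18mo-ACEI, 17548 and 19806 in Tg-18mo, and 36598 and 36156 in Tg-12mo. The other 9 markers summed to 1779 and 1840 for Tg-18mo-ACEI, 8865 and 9166 for Tg-18mo, and 7814 and 7948 for Tg-12mo. At 18 against 12 months 4 of the 10 were higher and Ttr alone was lower (-0.96, and -0.23 after quantile normalization). All 6 tested ependymal markers were lower with captopril, as were 5 of 8 meningeal fibroblast markers. Over all 8 ependymal markers, the untested Spag16 and Hydin included, the sums were 1882 and 1675 in Tg-18mo-ACEI, against 3229 and 2968 in Tg-18mo. Of the ependymal markers Dnah6 (76.6 and 25.3 in Tg-18mo-ACEI) met the minimum through the untreated groups alone. Of 8 markers of thalamus and striatum, which border the hippocampus or lie near it, 4 were lower and 1 higher with captopril, and 5 were higher and 1 lower at 18 than at 12 months. Their summed signals were 3769 and 3557 for Tg-18mo-ACEI, 5330 and 5416 for Tg-18mo, and 3943 and 3968 for Tg-12mo. Tcf7l2, the 1 higher with captopril and the 1 lower at 18 months in this list, is also among the regulators above, with the limit given there. Drd2 (97.8 and 82.6 in Tg-12mo) and Lef1 (64.2 and 87.4), both higher at 18 months, had Tg-12mo means under the signal minimum. Markers of Schwann cells, which myelinate peripheral nerves, were few, with 4 tested, 2 lower after captopril and none higher. Of the lower ones, Ncmap had 10.0 and 4.83 in Tg-18mo-ACEI, against 60.1 and 85.7 in Tg-18mo, with both means under the signal minimum. Ncmap met the minimum through Tg-12mo alone (85.4 and 132.1), so its difference after captopril is a description only. Signals of 0 do not occur in the table, so no marker was absent in that sense, and the part of other cells or of dissection in the differences of the myelin genes was not tested.

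The mean profile of the 9 genes, each by its brightest probe set and centred, was lowest on the Tg-18mo-ACEI chips (-0.10 and -0.12 on the log2 scale), near its mean on the Tg-18mo chips (0.02 and 0.03) and highest on the Tg-12mo chips (0.09 and 0.08). Over the 6 chips the probe sets most like this profile were those of Rab34, Plagl1, Nhp2, Nrd1 and Lbp, with Pearson's r between 0.998 and 0.999. Of the 21099 other probe sets with 1 symbol 502 (2.38%) reached r of 0.95 or more. The 6 chips fall into 3 groups, and the profile holds the bright Mbp, Mobp and Cnp signals whose age difference depended on the scaling.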

How the data were processed

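Signals were used as deposited. The authors had hybridised labelled RNA to Affymetrix MG430 2.0 arrays and computed 1 linear signal intensity per probe set and chip with the GCOS software, scaled to a target value of 600. A trimmed mean (2 percent left out at either end) was 600 on each of the 6 chips. Probe sets were assigned to genes through the platform annotation, which gives 1 symbol to 34945, several to 932 and none to 9160. The 64 control probe sets were left out of the tests. For the 23262 probe sets whose mean reached 100 in any group, log2 signals were compared with limma 3.58.1 under R 4.3.3, by lmFit on 3 group means over all 6 chips and eBayes with the prior variance following intensity (3 residual and 5.37 prior degrees of freedom). P-values were adjusted over all of them (Benjamini-Hochberg, 0.05), and the script was tested on simulated data. An exact permutation test of 2 chips against 2 cannot give a two-sided p below 0.333 and was not used.

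The members and the gene lists were chosen with earlier results of these data known. All probe sets of the members are named. From each list the 4 genes with the largest absolute difference in a comparison could be named, and as most alike the 5 probe sets with the highest Pearson correlation. The number of chips limits the precision. The alternatives changed the filter (none, or an overall mean signal of at least 200), the scale (32 added before log2), the scaling (quantile normalization, or division by the chip's median), the chips fitted (2 groups alone, or 1 chip left out in turn), the model (replicate number as a block, no trend in the prior variance), the test (the methods' t-test on log2 signals) and the representation of a gene (its probe sets averaged). RMA values were not used here. Sequences are those of RefSeq (GRCm38.p6), and positions are given for promoters only, since the array values carry no genome build. Tables were read with pandas 2.3.3 in Python 3.11.15, and figures drawn with matplotlib 3.10.9.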

Additional observations from a re-analysis of the deposited data

How the results depend on the processing

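Captopril counts (3 higher, 10 lower) changed little with the scaling: 3 and 11 after quantile normalization. Where the prior variance did not follow intensity, the counts were 3 and 7, 8 and 8, and 4 and 12 in the 3 comparisons, and 3, 2 and 3 calls were lost (adjusted p between 0.05 and 0.087), those of Opalin among them in the first (0.07) and the second (0.063). Leaving out 1 chip in turn gave 3 to 3 higher and 8 to 10 lower with captopril, 6 to 8 and 9 to 11 at 18 against 12 months, and 4 to 6 and 11 to 13 for treated against 12 month-old mice. Quantile normalization left 6 instead of 10 lower at 18 against 12 months. The methods' t-test on log2 signals, after Benjamini-Hochberg adjustment, passed 0 higher and 0 lower with captopril, 2 and 1 at 18 against 12 months, and 0 and 0 for treated against 12 month-old mice, while 13, 18 and 17 member probe sets had an unadjusted p under 0.05 by it. At the thresholds of the methods (2-fold, unadjusted p of 0.01) limma passed Mbp 1425263_a_at alone in the first and the second comparison and none in the third, and the t-test on log2 signals passed 0 in each. With all probe sets of a gene averaged, 3 genes instead of 1 were higher with captopril and 5 instead of 4 lower. By the same averages 3 instead of 5 were lower at 18 against 12 months, and 3 instead of 5 were lower in treated than in 12 month-old mice. The average of Mbp gives its dim golli-annotated probe set (1.92 with captopril) the same weight as its bright ones. With the replicate block the counts were 3 and 10, 8 and 10, and 6 and 13, and no call changed. The deviations of same-numbered chips correlated at -0.03, -0.052 and 0.034, so the numbers did not pair the chips.

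Signs turned as follows, and the cause was not tested. Quantile normalization gave 0.057 for Mbp 1454651_x_at with captopril (0.0029 after median scaling). At 18 against 12 months it gave 0.10 for Mbp 1419646_a_at, 0.16 for Mobp 1433785_at and 0.0049 for Mbp 1456228_x_at, and median scaling gave -0.00068 for Mbp 1451961_a_at. For treated against 12 month-old mice quantile normalization gave 0.0505 for Mal 1417275_at, 0.0052 for Mbp 1419646_a_at, -0.011 for Mbp 1425264_s_at and 0.00049 for Mbp 1456228_x_at. With a chip left out, differences that had not passed spanned 0. With captopril these were Mal 1417275_at (-0.011 to 0.043), Mbp 1436201_x_at (-0.0803 to 0.13) and Mbp 1454651_x_at (-0.099 to 0.045). At 18 against 12 months they were Cldn11 (-0.20 to 0.024), Mbp 1425264_s_at (-0.16 to 0.0303) and Mbp 1451961_a_at (-0.0405 to 0.068). For treated against 12 month-old mice they were Cldn11 (-0.16 to 0.066) and Mbp 1425264_s_at (-0.026 to 0.16).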
